A study of Mus musculus with 20 samples.

Results

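The genes described here are those of the TGF-β ligands (Tgfb1, Tgfb2 and Tgfb3), their receptors (Tgfbr1, Tgfbr2 and Tgfbr3) and the Smads that carry or damp their signal (Smad2, Smad3, Smad4 and Smad7). They were followed in H3K4me3 and H3K4me1 ChIP-seq of immortalized mouse embryo fibroblasts. An H3K4me3 region was taken as a member if the authors' promoter lists, which cover regions within 3000 bp of a transcriptional start site (TSS), gave it the name of one of these genes. This found 9 of the 10 genes, each with 1 region, among 15563 named promoter regions of 13020 genes and 22343 H3K4me3 regions in all. In addition, 18 of the 117165 H3K4me1 regions used here shared 1 bp or more with them. Smad7 had no region by this rule and is described apart.

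The study asked how loss of Ash2l, a core subunit of the KMT2 complexes that methylate lysine 4 of histone H3, alters this mark. The lines KO1 (iMEF1) and KO2 (iMEF2) carry Ash2l fl/fl and Cre-ER, come from different litters and were immortalized with an shRNA against p19Arf, so each is 1 cell line. Treatment with 5 nM 4-hydroxytamoxifen (+HOT) for 5 days deletes exon 4 of Ash2l, and control cells received ethanol (-HOT). For each mark there was 1 library per line and condition, which gives 2 pairs, with the line as replicate. The libraries of WT cells were not analysed here, so effects of HOT itself cannot be told apart from those of the loss of Ash2l. No region of either mark covered exon 4 of Ash2l, so these files do not check the deletion.

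TGF-β ligands are secreted in a latent form and, once released, bind the type II receptor Tgfbr2, which activates the type I receptor Tgfbr1. Tgfbr3 (betaglycan) presents ligand to them. Tgfbr1 phosphorylates Smad2 and Smad3, which enter the nucleus with Smad4 and regulate transcription, while Smad7 is an inhibitory Smad that the pathway itself induces. In fibroblasts TGF-β is known as an inducer of extracellular matrix and contractile genes. H3K4me3 marks the promoters of active genes, and H3K4me1 is found at enhancers and at the flanks of promoters.

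The promoters of Tgfb1 and Tgfb2 are shown because these genes had the lowest and the highest H3K4me3 ratio between +HOT and -HOT among the 9 genes. Each line gives the 250 bases before the RefSeq start (table of GRCm38.p6), 5′ to 3′ on the strand of the gene, and capitals mark matches to the motifs named below. In mm9, the build of the deposited files, they lie at chr7:26471771-26472020 on the plus strand and at chr1:188529869-188530118 on the minus strand.
Tgfb1: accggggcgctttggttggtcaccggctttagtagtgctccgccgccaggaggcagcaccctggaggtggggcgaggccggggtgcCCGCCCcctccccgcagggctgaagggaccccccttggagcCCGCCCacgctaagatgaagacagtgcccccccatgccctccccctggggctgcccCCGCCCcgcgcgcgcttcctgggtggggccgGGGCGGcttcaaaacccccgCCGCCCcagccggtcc
Tgfb2: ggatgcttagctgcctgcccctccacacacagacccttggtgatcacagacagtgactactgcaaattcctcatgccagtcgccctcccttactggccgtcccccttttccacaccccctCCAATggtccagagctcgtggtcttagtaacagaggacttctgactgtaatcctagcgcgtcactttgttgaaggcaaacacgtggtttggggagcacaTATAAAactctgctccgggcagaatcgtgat

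Both strands were searched for the GC box (GGGCGG), the CCAAT box (CCAAT), the TATA box (TATAAA), the AP-1 motif (TGANTCA) and the Smad palindrome (GTCTAGAC). No match overlapped another. The Tgfb1 window held 5 GC boxes, the nearest beginning 16 bases before the start, and none of the other motifs. Its GC content was 75.2%. The Tgfb2 window, at 53.6% GC, held 1 CCAAT box and 1 TATA box beginning 31 bases before the start, and no GC box. Of 32851 RefSeq promoter windows of the same length, 32.7% held a GC box, 33.8% a CCAAT box, 12.4% a TATA box, 6.75% an AP-1 motif and 0.167% a Smad palindrome. The main Tgfbr1 promoter had 2 GC boxes and 2 CCAAT boxes, that of Smad3 had 2 GC boxes, and that of Tgfbr2 had 2 CCAAT boxes. Neither the AP-1 motif nor the Smad palindrome matched in any of these 5 windows. These matches describe the letters only. Tgfb3 and Tgfbr3 were not among the promoter sequences used here.

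All 9 promoters were in the authors' class of high H3K4me3 in both lines, as were 41.2% of the 15563 named promoter regions. The authors formed this class from the counts of -HOT and +HOT cells together, so it is not a class of -HOT level alone. The regions were 2724 (Tgfbr1) to 4472 bp (Smad3) wide, which placed them between the 82.7th and the 97.8th percentile of width, and each held the GENCODE start of its gene and reached further downstream than upstream of it. The level in -HOT cells, as scaled reads per kb and per 1000000 scaled reads in regions, was 42.2 ± 2.70 for Tgfb2 (SD, n = 2), the highest of the 9, and 31.3 ± 1.24 for Smad3, the lowest. Between them, in descending order, stood Tgfb3, Tgfbr3, Tgfbr2, Tgfb1, Tgfbr1, Smad2 and Smad4. The lines overlapped between every pair of neighbours in this order, while Tgfb2 lay above Smad3 in both lines. Smad7 had 40.0 ± 7.95, within the range of the 9. Among named promoter regions the levels per kb stood between the 51.0th (Smad3) and the 77.4th percentile (Smad2) in KO1, and between the 39.3rd (Smad4) and the 94.1st (Tgfb2) in KO2, where Smad2 was at the 44.2nd. Several of the 9 were thus near or below the median promoter by reads per kb. In sequence, Smad2, Smad4 and Tgfbr1 had the most CpG dinucleotides relative to their base composition, with observed over expected ratios of 0.96, 0.90 and 0.84, at the 98.5th, 96.5th and 92.3rd percentile of promoter regions. Tgfb3 had a ratio of 0.37, and 11.03% of promoter regions lay below it. Tgfb1 had the highest GC content of the 9 regions, 61.6%, against a median of 54.0% over promoter regions.

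At all 9 regions the H3K4me3 signal of both lines was lower with HOT. The decrease passed the test at 7 of them, 2 of the 3 ligands, 2 of the 3 receptors and 3 of 3 Smads. It was largest at Tgfb1, which kept 21.6% of its signal in KO1 and 15.3% in KO2, and smallest at Tgfb2 and Tgfbr3, which did not pass. Among all 13512 promoter regions tested 85.2% fell and none rose (0 with limma, also at an unadjusted p under 0.05, and 0 with edgeR), so the count for these genes is near that of promoters in general. The log2 ratio was lower in KO2 than in KO1 at 9 of 9 regions, as was the median of all regions given below, and this difference was not tested. By the thresholds of the study, a log2 ratio under -0.58 in each line and more than 20 reads, 9 of the 9 regions were lost in both lines, as were 87.9% of the 13512 promoter regions tested. Tgfb2 only just met the threshold in KO1, with a log2 ratio of -0.582.

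**Figure D1:**
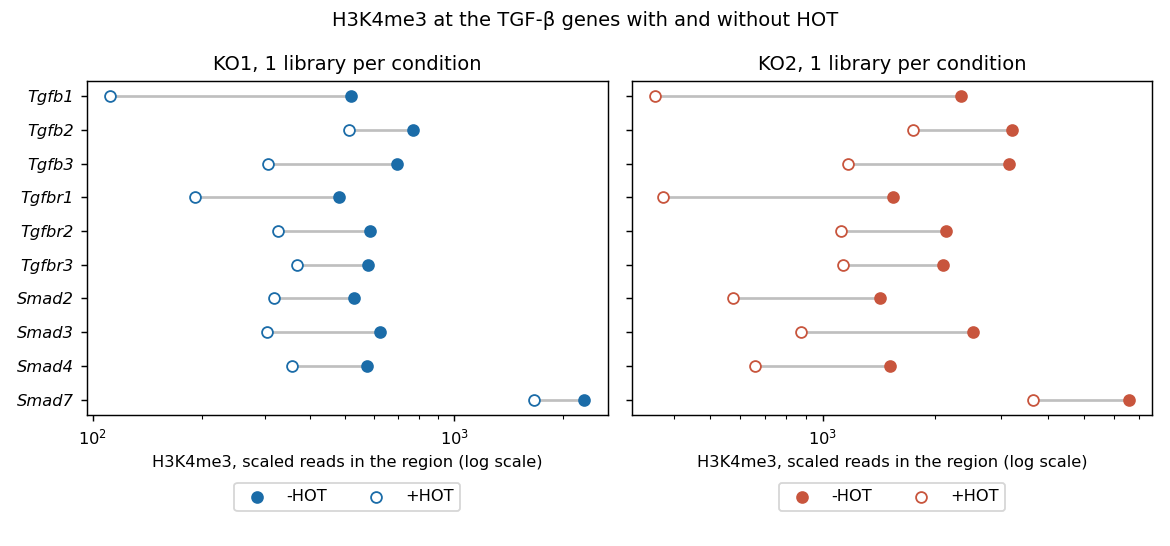
Scaled H3K4me3 reads (log scale) in the region of each gene in KO1 (left) and KO2 (right), with filled points for -HOT and open points for +HOT, 1 library each. The open point lies to the left of the filled one for every gene in both lines, with the longest distance at Tgfb1 (518 to 112 reads in KO1, 2335 to 357 in KO2). Smad7 was found by its GENCODE start.

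Tgfb1, the prototype of the family, has its region on chromosome 7 from 26471407 to 26474871, centred in the first exon. It had 518 scaled reads in -HOT and 112 in +HOT cells of KO1, and 2335 and 357 in KO2. The mean log2 ratio was -2.45 (standard error 0.391, limma, adjusted p = 6.75e-09). Tgfb1 had the lowest ratio of the 9 genes in each line. Tgfb2, a ligand with roles in heart and skeletal development, has a region on chromosome 1 from 188525989 to 188530140. It held 768 and 513 reads in KO1, and 3213 and 1739 in KO2, a mean log2 ratio of -0.73 (limma, adjusted p = 0.0673). Tgfb2 thus kept 66.8% of its signal in KO1 and 54.1% in KO2, the highest shares of the 9. At Tgfb3, a ligand needed for fusion of the palate, the region on chromosome 12 from 87416254 to 87420540 held 693 and 306 reads in KO1, and 3149.5 and 1171 in KO2. Tgfb3 fell by 1.30 on the log2 scale (limma, adjusted p = 0.00166), which lies between the other ligands in both lines.

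Tgfbr1, the type I receptor, has a region on chromosome 4 from 47364775 to 47367498. It held 481 reads in -HOT and 192 in +HOT cells of KO1, and 1542 and 374 in KO2. The mean log2 ratio of Tgfbr1 was -1.68 (limma, adjusted p = 4.96e-05), the second lowest of the 9 genes. The type II receptor Tgfbr2, on chromosome 9 from 116081964 to 116085259, held 584 and 325 reads in KO1, and 2129 and 1117 in KO2. It fell by 0.89 on the log2 scale (limma, adjusted p = 0.0297). The co-receptor Tgfbr3, on chromosome 5 from 107715768 to 107718984, held 578 and 368 reads in KO1, and 2096 and 1134 in KO2. Its mean log2 ratio was -0.77 (limma, adjusted p = 0.0565). The receptors that bind the ligand first, Tgfbr2 and Tgfbr3, kept 52.5% to 63.7% of their signal, whereas Tgfbr1 kept 39.9% and 24.3%.

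The Smads lay closer together. The region of Smad2, on chromosome 18 from 76400234 to 76403077, held 527 and 317 reads in KO1, and 1419 and 576 in KO2. Smad2 fell by 1.01 on the log2 scale (limma, adjusted p = 0.0136). The region of Smad3, on chromosome 9 from 63602376 to 63606847, held 623 and 304 reads in KO1, and 2519.8 and 877 in KO2. Smad3 fell by 1.28 (limma, adjusted p = 0.00202). The region of Smad4, the common partner of Smad2 and Smad3, lies on chromosome 18 from 73861079 to 73864388 and held 575 and 355 reads in KO1, and 1513 and 661 in KO2. Smad4 fell by 0.94 (limma, adjusted p = 0.0212). Smad2, Smad3 and Smad4 kept 48.8% to 61.8% of their signal in KO1 and 34.8% to 43.7% in KO2.

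The standard error was 0.391 for every H3K4me3 region, because limma pooled the spread over all of them, and p-values from 2 pairs do not cover an error shared by a whole library. Without the line as a block, 0 of the 9 regions passed in limma, also at an unadjusted p under 0.05. With a minimum of more than 50 reads, with the minimum in both conditions, with a trend in limma or with edgeR on the recovered reads, all 9 passed, Tgfb2 and Tgfbr3 included, and without a read minimum 4 did. The shares of all promoter regions that fell at these settings are not given here, so these counts do not set the genes apart.

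Because the scaling of the files has no external standard, the genes were also compared with the other regions. The median log2 ratio of the 16129 H3K4me3 regions tested was -1.06 in KO1 and -1.63 in KO2. Relative to these medians, Tgfb1 was lower (log2 difference -1.11, standard error 0.255, limma, adjusted p = 0.00022), and it was the only one of the 9 regions to pass. Of tested promoter regions 18.7% were lower and 10.0% higher. Tgfbr1 was the other region below the median (-0.34, adjusted p = 0.287). Tgfb2 (0.61, adjusted p = 0.0511) and Tgfbr3 (0.58, adjusted p = 0.0654) were furthest above the median of all tested regions, followed by Tgfbr2 (0.46), Smad4 (0.40), Smad2 (0.33), Smad3 (0.066) and Tgfb3 (0.042), none of which passed.

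**Figure D2:**
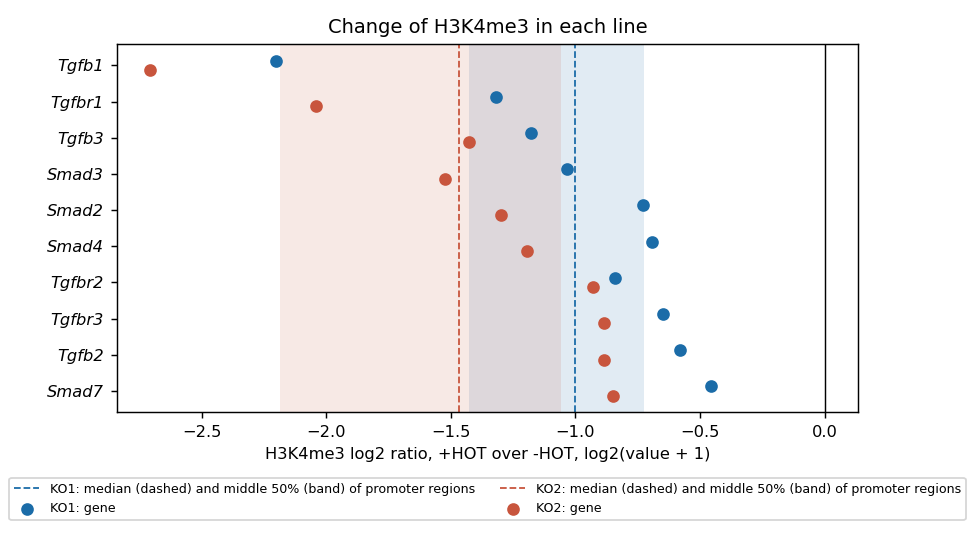
Log2 ratio of H3K4me3 between +HOT and -HOT (x axis) for each gene in KO1 (blue) and KO2 (red), sorted by the mean of both lines. Dashed lines and bands give the median and the middle 50% of the 13512 tested promoter regions of that line. Tgfb1 lies below the band of its line in both lines, at -2.20 and -2.71, and Tgfb2, Tgfbr3 and Smad7 lie above it in both.

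Smad7 was found by its GENCODE start, which was chosen once its values were known. It lies in an H3K4me3 region of 10911 bp on chromosome 18 from 75526981 to 75537891, the sixth widest of all regions, whose centre is 5253 bp from the start and so outside the promoter lists. The Smad7 region held 2282 and 1663 reads in KO1, and 6568 and 3643 in KO2. It thus kept 72.9% and 55.5%, more than any of the 9 other regions in both lines. The mean log2 ratio of Smad7 was -0.65 (limma, adjusted p = 0.100, or 0.0474 with a minimum of more than 50 reads). It did not pass with more than 20 reads in both conditions (limma, adjusted p = 0.0597), with a limma trend (0.181) or with edgeR (adjusted p = 0.102). Relative to the median region Smad7 was higher (0.69, limma, adjusted p = 0.0268). The other inhibitory Smad, Smad6, had a mean log2 ratio of -0.63 (limma, adjusted p = 0.113).

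H3K4me1 showed the opposite course at the starts of these genes. Of the 18 H3K4me1 regions that shared bases with the 9 H3K4me3 regions, 17 had enough reads to be tested, 13 rose and none fell. All 17 were higher in +HOT cells of both lines, and the untested region was lower in both. A region could enter the test through its +HOT reads alone. This held in both lines for the Tgfbr2 region with the largest ratio and the smaller Tgfb3 region, and in KO1 for a Tgfbr1 region upstream of the start. With more than 20 reads required in both conditions these dropped out, and 13 of the other 14 regions rose. These 13 include the upstream regions of Smad3 and Smad4 and the distal one of Tgfb2, which did not pass in the main test. The share of all such regions at that setting is not given here. In the main test, 66.1% of all H3K4me1 regions that share bases with a promoter H3K4me3 region rose and 2.94% fell, so the count of 13 of 17 is close to that background. The background covers promoters of all H3K4me3 classes, and the paper reports the highest increase of H3K4me1 in the high class. Every one of the 9 genes had at least 1 region that rose. In -HOT cells the 13 regions held 9.91 to 45.7 scaled H3K4me1 reads per kb in KO1 and 7.99 to 56.6 in KO2, and in +HOT cells 50.5 to 106 and 62.6 to 106. The regions with the fewest reads per kb in -HOT cells, at Tgfb2 and Tgfbr2, had the largest ratios.

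The largest log2 ratio was at Tgfb2. The H3K4me1 region that begins 16 bp downstream of its start held 25 reads in -HOT and 157 in +HOT cells of KO1, and 21 and 215 in KO2. Its mean log2 ratio was 2.95 (standard error 0.252, limma, adjusted p = 1.01e-06). At Tgfbr2 the region that begins 154 bp downstream of the start held 10 and 57 reads in KO1, and 8 and 72.7 in KO2, a log2 ratio of 2.72 (limma, adjusted p = 1.81e-06). These 2 log2 ratios were the largest of the 17, but they rest on 8 to 25 reads in -HOT cells. The Tgfbr2 region entered the test only through its +HOT reads, so its p-value does not stand apart from that filter. At Tgfbr1 the region from 1109 to 225 bp upstream of the start held 13 and 94 reads in KO1, and 22 and 93.6 in KO2, a log2 ratio of 2.40 (limma, adjusted p = 5.24e-06). Per kb this Tgfbr1 region went from 14.7 to 106 reads in KO1 and from 24.9 to 106 in KO2, the highest +HOT values of the 17. Tgfb1, with the largest fall of H3K4me3, had a single H3K4me1 region, from 86 to 2497 bp downstream. It held 54 and 181 reads in KO1, and 50 and 185 in KO2, and rose by 1.80 on the log2 scale (limma, adjusted p = 4e-05).

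At Tgfb3 a region of 6414 bp spans the start and held 176 and 422 reads in KO1, and 268 and 585 in KO2, a log2 ratio of 1.19 (limma, adjusted p = 0.00163). A second Tgfb3 region, downstream of the start, rose by 1.68. It held 16 reads in -HOT cells of KO1 and 8 in those of KO2, and entered the test only through +HOT. Tgfbr3 had 1 region, from 164 to 2676 bp downstream of the start, with 66 and 127 reads in KO1 and 73 and 183 in KO2, a log2 ratio of 1.12 (limma, adjusted p = 0.003). The Smads had an upstream and a downstream region each. The downstream ones rose at all 3, by 0.91 at Smad2, 1.23 at Smad3 and 1.25 at Smad4, and the upstream one rose at Smad2, by 1.22. At Smad3 and Smad4 the upstream regions had log2 ratios of 0.64 and 0.67 and did not pass (limma, adjusted p = 0.0886 and 0.0627). At Tgfbr1 and Tgfbr2 a further region rose by 0.81 and 0.80. The remaining regions that did not pass were the distal ones of Tgfb2 (0.68) and Tgfbr2 (0.25).

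The untested H3K4me1 region is a stretch of 200 bp at the upstream edge of the Tgfbr1 promoter, with 19 and 4 reads in KO1, and 11 and 6.36 in KO2. By place, 9 of 11 tested regions downstream of a start, 3 of 5 upstream and the 1 over a start rose. At Smad7 the H3K4me1 region from 3209 bp downstream onward, 22129 bp wide, held 1072 and 2317 reads in KO1, and 1339 and 2465 in KO2. It rose by 1.00 on the log2 scale (limma, adjusted p = 0.00675). After the median log2 ratio of H3K4me1 (0.30 in KO1 and 0.08 in KO2) was set to 0, 8 of the 17 regions of the 9 genes passed, all higher, and 47.5% of all tested H3K4me1 regions at promoter H3K4me3 were higher too. The 8 include the regions with the largest ratio at Tgfb1, Tgfb2, Tgfb3, Tgfbr1, Tgfbr2, Tgfbr3 and Smad3. Without the line as a block 5 regions passed.

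Elsewhere in the genes few H3K4me1 regions passed the test. The bodies of 7 of the 9 genes held 85 further H3K4me1 regions, of which 63 could be tested. Tgfb1 and Tgfb3 held none among the regions used. None of the 63 rose and 2 fell in limma, 3 and 7 at an unadjusted p under 0.05 and 3 and 3 in edgeR, with a median of the mean log2 ratios of -0.04. Among all tested H3K4me1 regions away from promoter H3K4me3, 2.93% rose and 2.49% fell. Of the 63 regions 22 were higher and 19 lower in +HOT cells of both lines, and the others differed in sign between the lines. The 2 that fell lie within Tgfbr3, on chromosome 5 from 107659851 to 107660562 and from 107580468 to 107581009. The Tgfbr3 region nearer to the start had 41 and 18 reads in KO1, and 42 and 21.8 in KO2, and fell by 1.03 (limma, adjusted p = 0.00527). The other had 32 and 14 reads in KO1, and 32 and 18.2 in KO2, and fell by 0.96 (limma, adjusted p = 0.00933). In -HOT cells the 63 regions held a median of 54.4 reads per kb in KO1 and 66.4 in KO2. The 17 promoter regions held 28.9 and 36.8.

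**Figure D3:**
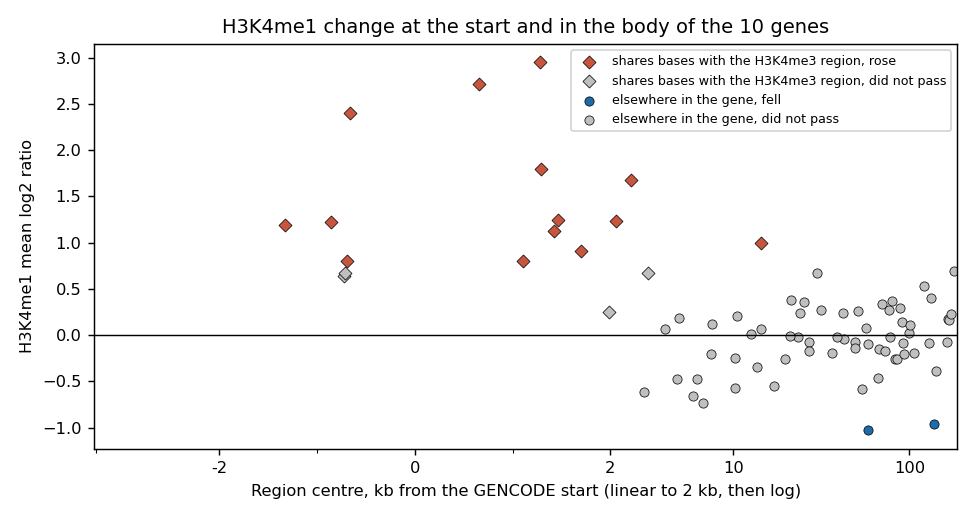
Mean log2 ratio of tested H3K4me1 regions (y axis) by the distance of their centre from the GENCODE start (x axis, linear to 2 kb and then logarithmic) in the 10 genes. Diamonds share bases with the H3K4me3 region and circles lie elsewhere in the gene. The diamonds lie above 0, up to 2.95, and the circles lie between -1.03 and 0.70.

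Tgfbr3 also had a second H3K4me3 region inside the gene, on chromosome 5 from 107596140 to 107597381, 121888 bp from its start. It held 37.5 and 9 reads in KO1, and 183 and 35 in KO2. This Tgfbr3 region fell by 2.15 on the log2 scale (limma, adjusted p = 2.58e-07) and was lower than the median region (-0.81, limma, adjusted p = 0.00909). The broader H3K4me1 region around it had a log2 ratio of 0.53 (limma, adjusted p = 0.166). Hence this site inside Tgfbr3 kept 23.99% and 19.1% of its H3K4me3, where the Tgfbr3 promoter kept 63.7% and 54.1%. Among the 9 genes, only Tgfb2 had another such region, on chromosome 1 from 188525011 to 188525670. This Tgfb2 region had too few reads in KO1 to be tested, and kept 88.9% there and 37.7% in KO2. Smad7 had 6 further H3K4me3 regions, of which 2 could be tested. Both fell, with mean log2 ratios of -1.77 and -0.95, and neither passed relative to the median region. Whether such sites differ from promoters was not tested.

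For the rest of the pathway, 89 further genes in 7 lists were examined by their strongest promoter region. Of these, 74 had a region by the authors' annotation and 71 could be tested, of which 58 fell and 13 did not pass. All 71 mean log2 ratios were below 0. Over all 12214 genes tested 83.9% fell. The median of the pathway genes was -1.25, against -1.19 over all genes.

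The other ligands of the family, the activins, BMPs and GDFs, all fell where tested (12 of 12), with a median of -1.71. They ranged from Bmp8a, with 125 and 28 reads in KO1 and 498 and 51 in KO2 (log2 ratio -2.69, limma, adjusted p = 3.63e-10), over Inhbb, an activin subunit (-1.73), to Bmp2 (-1.15). Of the other receptors 8 of 9 fell, with a median of -0.97. Acvr2b, an activin receptor of type II, was lowest at -2.51, Acvr1 was the median at -0.97, and Acvr2a was highest at -0.78 and did not pass (limma, adjusted p = 0.0527). Of the other Smads 3 of 4 fell, and the lowest was Smad9 (-1.38). Smad5, which acts for BMP receptors, had a ratio of -1.02.

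Genes that hold TGF-β latent or release it fell in 8 of 8 cases, with a median of -1.38. The lowest was Ltbp4 (-2.42), a latent TGF-β binding protein, followed at the median by Itgb8 (-1.43), an integrin chain that releases TGF-β, and Furin (-0.94), the protease that cleaves the precursor, was highest. Extracellular antagonists fell in 7 of 7 cases, from Grem1 (-2.08), whose product binds BMPs, to Dcn (-1.04), whose product decorin binds TGF-β.

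Intracellular regulators fell in 11 of 15 cases, with a median of -1.09. The corepressor Tgif2 was lowest (-2.50), and Trim33, which binds Smads, was the median (-1.09). Those that did not pass were Zfyve9 (-0.79), the Smad anchor SARA, Strap (-0.72), the ubiquitin ligase Smurf2 (-0.69) and Pmepa1 (-0.68), which is itself a TGF-β target. Their adjusted p-values from limma were 0.0505, 0.0719, 0.0843 and 0.0867.

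Target genes of the pathway had the median nearest to 0 of the 7 lists, -0.88, and 9 of 16 fell. The medians of the other Smads (-0.92) and the other receptors (-0.97) were close to it. Tgfbi was lowest, with 84.0 and 24 reads in KO1 and 349 and 57 in KO2 (-2.18, limma, adjusted p = 1.85e-07), and Col1a1 was the median (-0.88). Cdkn1a, the gene of the cell cycle inhibitor p21, was highest, with 716 and 707 reads in KO1 and 2572 and 1619 in KO2 (-0.34, limma, adjusted p = 0.383). Also Id1 (-0.72), Col3a1 (-0.71), Id2 (-0.64), Cdkn2b (-0.62), Snai2 (-0.61) and Id3 (-0.49) did not pass, with limma adjusted p-values from 0.0705 to 0.216. Relative to the median region 7 of the 16 target genes were higher and 2 lower, against 10.8% and 16.6% of all genes tested. The list was chosen with earlier results of these data known, so this contrast is not an independent test. All tested target genes except Tgfbi were in the high class in both lines, as were 41.2% of named promoter regions. Whether the contrast goes with that class was not tested. Over all 7 lists, 11 genes were higher and 14 lower.

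**Figure D4:**
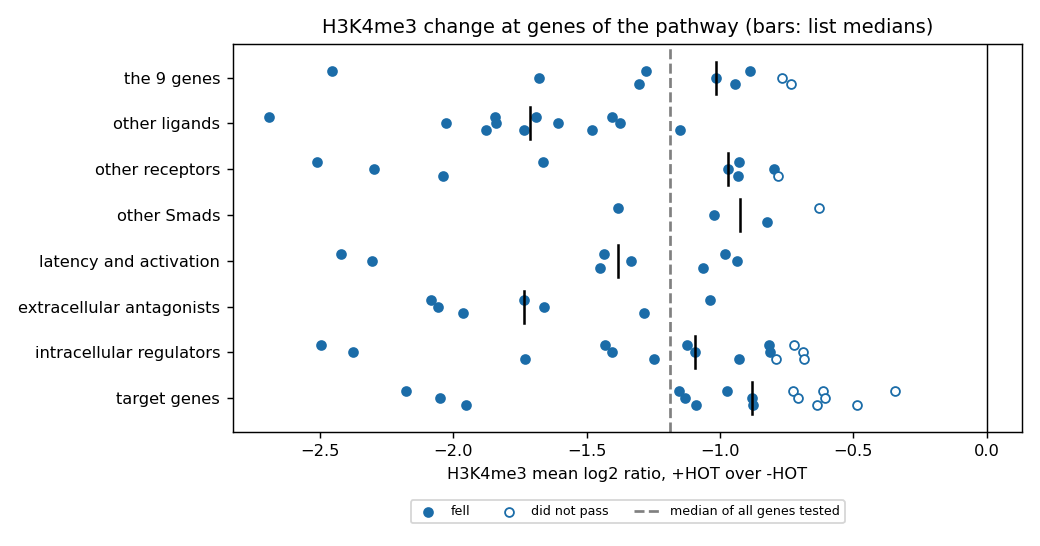
Mean log2 ratio of H3K4me3 (x axis) for the 9 genes with a region by the rule and for the tested genes of 7 lists of the pathway, with filled points for genes that fell and open points for those that did not pass. Bars give the median of each list, which is nearest to 0 for target genes (-0.88), and the dashed line is the median of all genes tested (-1.19).

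As a measure of similar patterns, the Euclidean distance over the 4 H3K4me3 values (log2) was taken to the promoter regions of all other genes. The closest pair was Tgfbr3 and Stam, at a distance of 0.042, with Cpsf3 next. Tgfbr2 was nearest to Vdac1 and Dcun1d5, and Tgfbr1 to Abhd17c and Hdgfl3. Tgfb1 had more distant neighbours, Maml3 at 0.205 and Nr4a2 at 0.290. Tgfb2 was nearest to Lima1 and Rpl4, and Tgfb3 to Mynn and Epha7. Smad2 was nearest to Eif4g1 and Tle5, Smad3 to Fzd1 and Ppfibp1, and Smad4 to Mier3 and Sos1. For Smad7 the nearest were Malat1 at 0.367 and Hoxa9 at 0.692.

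The depth of the libraries sets the precision of these values. The regions held 2441698 to 17708078 H3K4me3 reads and 6157647 to 9048056 H3K4me1 reads per library, with fewer H3K4me3 reads in KO1 than in KO2. As a check of the cell type, 10 of 10 fibroblast markers had a promoter region, 8 of them in the high class in both lines. None of 4 haematopoietic markers, 1 of 4 endothelial and 4 of 5 epithelial markers had a region, none of them in the high class in both lines.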

How the data were processed

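H3K4me3 and H3K4me1 ChIP-seq of the 8 KO libraries was used, and the 8 WT and 4 input libraries were not analysed here. The authors trimmed reads with Trim_Galore, aligned them to mm9 with BWA, removed duplicates (Picard) and blacklisted regions, called regions with Macs2 and annotated them with Homer. In the deposited signal columns the authors divided the reads of each region so that both libraries of a line match in coverage, and undivided columns hold counts as deposited. Multiplied by the factor of their library (1 to 1.333), 100% of the values were whole within 0.001. The scaling uses total coverage, so a change common to most regions depends on it. The distances to the TSS are the authors' own values, in bp. Regions without whole-number coordinates or without a value in every library of the mark were left out, as were duplicates. Fewer H3K4me1 regions remained than the paper reports, so a region absent here may have been left out.

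The test was limma 3.58.1 (R 4.3.3) on log2(value + 1) with line and condition as terms. It covered regions where each line exceeded 20 reads in -HOT or +HOT, with Benjamini-Hochberg adjustment over all of them (threshold 0.05). Fold changes on this scale understate the change of low regions. -HOT and +HOT libraries of a line come from the same cell line, and their deviations correlated at 0.587 (H3K4me3) and 0.580 (H3K4me1). The test was tested on simulated data.

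Gene starts are from GENCODE for mm9, and promoter sequences from RefSeq were placed in mm9 by exact match. The genes and lists were chosen with earlier results of these data known. Named are the 10 genes, the lowest, median and highest gene of each list with all that did not pass, and the 2 nearest genes by pattern. For 1 list the median gene is left out of the text. Alternatives were another pseudocount, other read minimums, no block, a trend, a median ratio of 0, another overlap, another region per gene, another log2 threshold and each line alone. edgeR 4.0.16 and the region at the GENCODE start were added after seeing the data. The authors' fold changes and motif tables were not used. Python 3.11.15 and matplotlib 3.10.9 were used.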

Additional observations from a re-analysis of the deposited data

How the results depend on the processing

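Of the 9 H3K4me3 regions 7 fell. Without a replicate block 0 of them passed, without a read minimum 4, and with the median log2 ratio set to 0 only 1, Tgfb1. For H3K4me1, 13 regions rose, but 5 without a replicate block, 5 without a read minimum and 8 with the median set to 0. Of the pathway genes 58 fell, but 0 without a replicate block, 38 without a read minimum and 14 with the median set to 0. Shares over all regions or genes without a block or without a read minimum are not given here. Relative to the median, 1 region was lower, but 0 without a read minimum or without a replicate block. None was higher in the main comparison, against 1 with more than 50 reads and 3 with a limma trend. With a log2 ratio under -1, 4 of the 9 regions were lost in both lines, instead of 9. The cause was not tested, except that setting the median to 0 by construction removes the shift common to all regions. With the median of all tested regions, promoters and others, set to 0 the ratio turned positive at Tgfb2 (0.61), Tgfb3 (0.042), Tgfbr2 (0.46), Tgfbr3 (0.58), Smad2 (0.33), Smad3 (0.066), Smad4 (0.40) and Smad7 (0.69). With each line alone the median log2 ratio ranged from -1.30 to -0.84 for H3K4me3, from 0.93 to 1.15 for H3K4me1, from 0.22 to 0.33 relative to the median, and from -1.46 to -0.83 for pathway genes, and 9 regions were lost in either line. A pseudocount of 5, an overlap of 50% or more, edgeR and the other region per gene, where run, left the counts above within 1.5 times the main one. Among the 63 H3K4me1 regions in gene bodies, 0 rose and 2 fell with limma, and 3 and 3 with edgeR. Many H3K4me1 regions held under 30 reads in -HOT cells, which limits the precision of their ratios.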
